A study of Mus musculus with 8 samples.

Results

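Binding sites of CTCF in newborn mouse lens epithelium were compared with those in newborn mouse lens fiber cells, peak by peak, on chromosomes 1 to 19. The members were all peaks of the 2 deposited lists on these chromosomes, 15799 from the epithelium and 23132 from the fibers, together 38931 of the 40301 peaks in the whole lists. A peak was called matched when it overlapped a peak of the other list by at least 1 bp, and alone when it did not.

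Lenses came from CD-1 mice at postnatal day 0.5, with no other genotype or treatment, and 200 lenses were pooled and separated under a microscope into epithelium and fibers. CTCF was precipitated from 6 µg of chromatin with 5 µl of an anti-CTCF antibody, and the bound DNA was sequenced (ChIP-seq). The labels give 1 CTCF sample per cell type, with 1 list of peaks each, so that no replicate spread between peak lists could be measured. The study's methods describe biological replicates and a larger amount of chromatin, and whether each list pools replicates is not given in the sources used here. Differences between both lists are therefore descriptions of these 2 libraries, without a test, and the intervals below are 95% intervals for counting error. Peak lists hold no marker transcripts, and the labelled cell type could not be checked from them. Read depth was not given in the files used here, so that a difference in binding and a difference in sequencing depth or enrichment between the libraries cannot be told apart.

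CTCF is a zinc finger protein that binds a long, asymmetric DNA motif, and together with cohesin, the ring-shaped complex that extrudes chromatin loops, it marks the ends of many loops and domain borders. A large share of its sites is occupied in most cell types, while weaker sites and sites at promoters vary more between tissues. The lens epithelium is the dividing anterior cell layer from which the fibers arise. Lens fiber cells elongate, fill with crystallins and finally lose their nuclei.

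Sequences under summits, the highest points of peaks, are shown first, since the motif is what ties a peak to CTCF. The core that was searched reads CC, any 3 bases, AG, any 2 bases and GGC, 12 bases in all, on both strands. It is given in capitals, with 24 bases on each side, in the 3 strongest peaks of each class (matched ones ranked by the fiber list) that hold it at least that far inside the 250 bases before a gene start. All are from RefSeq (GRCm38.p6, the same assembly as mm10) and run 5′ to 3′ on the strand of the gene. The first 3 lie in matched peaks, the next 3 in peaks found in lens fiber cells alone and the last 3 in peaks found in lens epithelium alone. In the lines of Lsm11 and Gm52265 the core runs on the strand opposite to the gene.
Lsm11, chr11:45945003-45945062, minus strand: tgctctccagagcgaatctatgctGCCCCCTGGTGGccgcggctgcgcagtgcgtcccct
Gm36358, chr1:65112177-65112236, plus strand: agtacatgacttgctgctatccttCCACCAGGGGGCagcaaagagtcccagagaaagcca
Gm52265, chr16:5306750-5306809, minus strand: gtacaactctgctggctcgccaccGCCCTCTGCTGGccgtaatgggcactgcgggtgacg
Nol9, chr4:152039235-152039294, plus strand: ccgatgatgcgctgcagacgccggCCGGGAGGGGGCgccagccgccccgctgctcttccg
Pdrg1, chr2:153015457-153015516, minus strand: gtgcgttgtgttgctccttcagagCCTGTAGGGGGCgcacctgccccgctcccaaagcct
Fam133b, chr5:3543742-3543801, plus strand: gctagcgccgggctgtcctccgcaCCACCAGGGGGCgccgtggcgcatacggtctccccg
Epha1, chr6:42373417-42373476, minus strand: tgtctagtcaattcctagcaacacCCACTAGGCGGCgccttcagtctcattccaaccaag
Gm40763, chr10:111636462-111636521, minus strand: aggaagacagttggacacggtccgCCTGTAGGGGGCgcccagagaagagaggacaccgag
Npr3, chr15:11907428-11907487, minus strand: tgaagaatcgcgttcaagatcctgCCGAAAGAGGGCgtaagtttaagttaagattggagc

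At Lsm11, a gene of histone mRNA processing, the fold enrichment over background that the peak caller gave was 8.57 in epithelium and 17.3 in fiber cells, and the fiber summit lay 18.5 bp from the centre of the core. The matched peak at Gm36358 had a fold of 10.5 in epithelium and 16.8 in fiber cells. Both gene starts were in both lists, and the choice by fiber fold favours a higher value on the fiber side. The fiber-alone peak at Nol9, a ribosomal RNA processing kinase gene, had a fold of 13.9 and its summit lay 9.5 bp from the core. At Epha1, an ephrin receptor gene, the epithelium-alone peak had a fold of 6.63 with its summit 38.5 bp from the core, and at Npr3, the natriuretic peptide clearance receptor gene, the fold was 4.77. The epithelium-alone examples were the weakest of the 9.

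Matching was uneven between the lists. Of the epithelium peaks, 11557 (73.2%, 95% CI 72.5 to 73.8) overlapped a fiber peak and 4242 were found in epithelium alone. Of the fiber peaks, 11556 (50%, 95% CI 49.3 to 50.6) overlapped an epithelium peak and 11576 were found in fiber cells alone. Most peaks found in lens epithelium therefore had a counterpart in fiber cells, while the fiber list held about as many peaks without a counterpart as with one. With the fiber list cut to its 15799 strongest peaks, the shares were 61.1% and 61.0%. Where 1 peak meets 1 peak, lists of equal length give nearly equal shares by construction, so that this is no separate finding. Nearly all matches were simple, with 11532 pairs made of 1 peak from each list among 11565 overlapping pairs. The median overlap was 235 bp, 50.7% of pairs covered the whole shorter peak, and 92.2% covered at least 80% of it. Around the 1 bp limit the values were sparse, with 11 pairs overlapping by less than 50 bp (the smallest by 7 bp) and 6 pairs of peaks lying apart by a gap of up to 50 bp (the smallest 19 bp).

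The matched share was higher at higher rank by fold enrichment within each list. In lens epithelium the matched share was 46.4% (95% CI 44.0 to 48.9) in the decile with the lowest folds, 69.3% in decile 5 and 97.8% (95% CI 96.9 to 98.4) in the decile with the highest. In lens fiber cells it was 20.1% (95% CI 18.6 to 21.8), 41.3% and 91.1% (95% CI 89.9 to 92.2) at the same ranks. The share was higher in each decile than in the one below it, in both lists, and the fiber share was lower than the epithelium share at every rank. Of the 2314 strongest fiber peaks 205 had no epithelium peak. The fiber list is the longer one. With lists of equal size the median percentiles of unmatched peaks were 31.9 in epithelium and 32.7 in fiber cells, beside 28.6 and 34.0 in the full lists. Such a cut drops the weakest fiber peaks and so also changes which epithelium peaks are unmatched. Why the lists differed in rank was not tested.

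**Figure D1:**
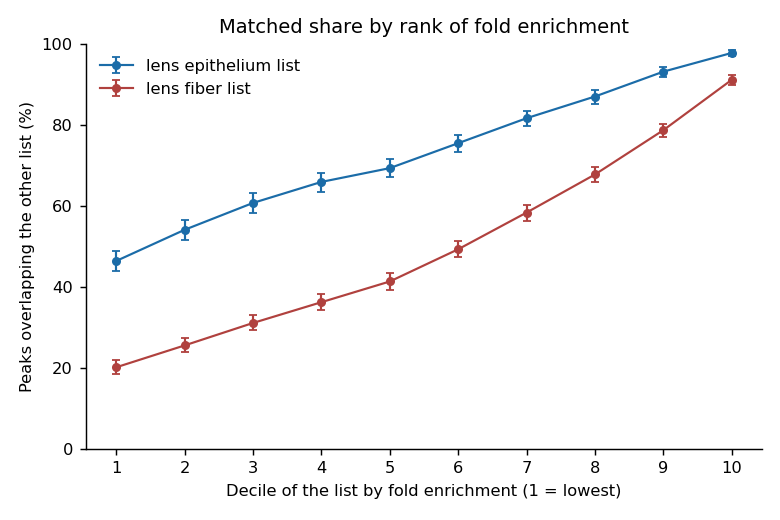
Percent of peaks that overlap a peak of the other list (vertical axis) in deciles of each list ordered by fold enrichment (horizontal axis, 1 is the lowest), with lens epithelium in blue and lens fiber in red. Bars are 95% Wilson intervals; the share is 46.4% in the lowest and 97.8% in the highest epithelium decile, and 20.1% and 91.1% in the fiber deciles.

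The median fold was 6.18 (quartiles 5.23 and 7.48) in matched epithelium peaks and 5.07 (4.51 and 5.78) in epithelium peaks alone. In the fiber list it was 7.65 (6.08 and 9.58) in matched peaks and 5.68 (4.86 and 6.79) in fiber peaks alone. On a percentile scale from 0 for the weakest to 100 for the strongest peak of its list, epithelium peaks alone had a median of 28.6 and matched epithelium peaks one of 59.2. The medians in the fiber list were 34.0 for peaks alone and 68.0 for matched peaks. The quartile ranges of matched and unmatched folds overlapped in both lists, so that many peaks of both classes shared the same folds.

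Within matched pairs, the fold was mostly higher in fiber cells. Each matched epithelium peak was paired with the overlapping fiber peak whose summit was nearest, which gave 11557 pairs. The median ratio of fiber to epithelium fold was 1.22 (quartiles 0.993 and 1.49), and 74.2% of pairs had the higher fold in fiber cells. The ratio depended on rank in the epithelium list, with a median of 1.47 in the lowest decile and 1.04 in the highest. Ranked by the fiber list the order turned, from 0.850 in the lowest decile to 1.55 in the highest, since a list that supplies the ranking also supplies one side of the ratio. Folds in both lists went together loosely over pairs, with a Spearman rho of 0.427 across pairs that share the same 2 libraries. The median difference in percentile was 19.1 points, and 30.2% of pairs lay within 10 points of each other.

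Among the pairs, 938 stood more than 50 percentile points higher in fiber cells and 410 more than 50 points higher in epithelium. These counts depend on the lengths of the lists. With the fiber list cut to the epithelium number, an alternative chosen after the data had been seen, they were 552 and 668 of 9648 pairs, so that the larger set was then the one higher in epithelium.

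At the very top, the lists shared many places. Of the 20 epithelium peaks with the highest folds all 20 were matched, as were all 20 of the fiber list, and 13 pairs were in the top 20 of both. Their ratio of folds was 1.02 to 1.27 and their median summit shift was 5 bp. The strongest peak of both lists lay in Chl1, a neural cell adhesion gene, at chr6:103648949-103649395 in epithelium (fold 28.4) and with a fold of 29.8 in fiber cells. Next came a site 54559 bp from Gm48310 on chromosome 12 with folds of 27.3 and 29.3, and one in 2210408I21Rik on chromosome 13 with folds of 27.1 and 27.7. A site 694 bp from Wls, which carries Wnt proteins to the cell surface, had folds of 22.9 and 24.0. Of the 10 strongest matched peaks of the epithelium and the fiber list 0 and 0 had a gene end at most 500 bp away, beside 4.85% and 4.81% of all matched peaks. In a loop anchor of their own cell type, a region at the end of a chromatin loop in Hi-C, lay 1 and 2 of them, beside 37.2% and 37.3% of all matched peaks. In the 100 strongest epithelium peaks the median ratio of folds was 1.03 (quartiles 0.897 and 1.16), and 24 of these pairs had both edges within 10 bp of each other, beside 408 of all pairs (3.53%). The sequence of these places was not used here, and whether it is repeated in the genome was not tested.

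Peaks in 1 list alone never reached such folds. The strongest in epithelium alone, 84509 bp from Gm9330 on chromosome 7, had a fold of 11.03, and the 10 strongest went down to 9.64. They included peaks in Pde9a, a cyclic GMP phosphodiesterase gene, with a fold of 10.6, in Lsamp, a neuronal adhesion gene, with 10.4, and in Fbxw24, an F-box gene, with 10.2. Of these 10, 0 were in an epithelium loop anchor, beside 14.4% of all epithelium peaks alone. In a gene body, over 500 bp from a gene end, lay 4, beside 43.0% of all epithelium peaks alone.

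The strongest peak in fiber cells alone had a fold of 16.3, at chr8:27023463-27023800 in Erlin2, a gene of the endoplasmic reticulum, with the summit 273 bp from a gene end. The second, with 14.7, overlapped Dnajc11, a mitochondrial cochaperone gene, 66 bp from a gene end, and the peak at Nol9 had its summit 13 bp from one. Peaks in Gse1 with a fold of 13.6, in Lrrfip1, a transcriptional repressor gene, with 13.3, at Pdrg1 with 13.2 and in Ldlrad4, a gene that restrains TGF-beta signalling, with 13.1 followed. Among the 10 strongest fiber peaks alone, 4 had a gene start or end at most 500 bp away. By gene ends only it was 3, beside 10.6% of all fiber peaks alone. In a fiber loop anchor were 4, beside 32.0% of all fiber peaks alone. Counts among 10 peaks are too small to set apart from these shares.

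Summits of matched pairs lay close together. The median absolute shift was 28 bp (95% CI 27 to 29, quartiles 13 and 51), 21.1% of pairs were within 10 bp, 74.4% within 50 bp and 95.3% within 100 bp, and the 2 summits fell on the same base in 1.00%. There was little direction to the shift, with a median of 1 bp toward higher coordinates in fiber cells and 51.5% (95% CI 50.6 to 52.4) of the 11441 shifted pairs on that side. Stronger peaks were placed more exactly: the median shift was 45 bp in the lowest decile of epithelium folds and 21 bp in the highest, and 35.5 bp and 21 bp in the same deciles of fiber folds. By width of the narrower peak the median had no single direction, with 31 bp under 250 bp, 22 bp from 300 to 350 bp and 30 bp over 400 bp.

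**Figure D2:**
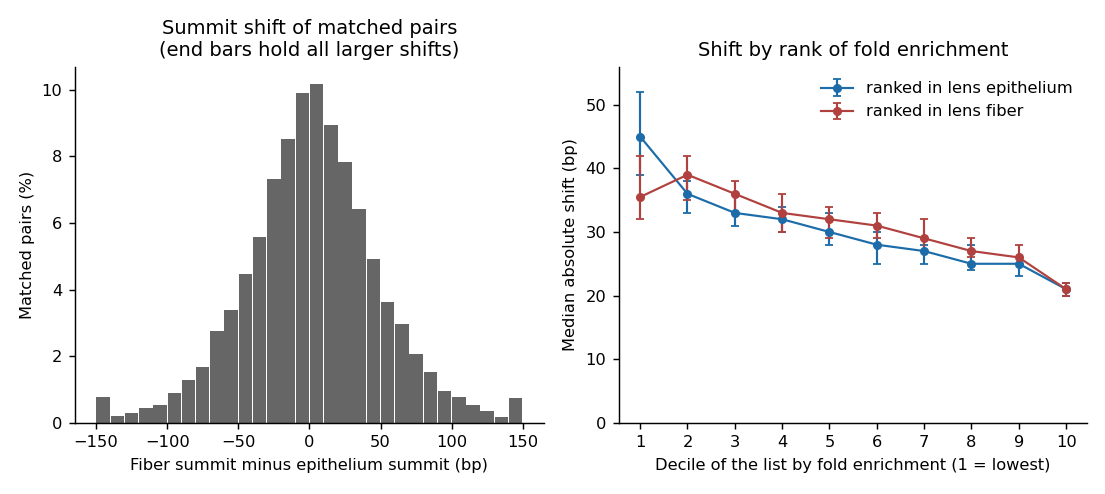
Left, percent of the 11557 matched pairs by the fiber summit position minus the epithelium summit position, in bp and bins of 10 bp, with all larger shifts gathered in the end bars; right, median absolute shift in bp by decile of fold enrichment in the epithelium (blue) or fiber (red) list, with 95% intervals. Shifts are spread evenly around 0, and the median is lowest, 21 bp, in the strongest decile of either list.

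Shifts above 200 bp were found in 61 pairs and above 500 bp in 7. In 3 of these 7 the peaks cover repeated gene copies. A fiber peak of 4638 bp at chr17:39843647-39848284, which overlaps Rn18s-rs5 and AY036118, copies related to ribosomal RNA, met 3 separate epithelium peaks, 2 of them with summits 1267 and 2572 bp away. At Gm10222 and Gm10925 on chromosome 1 a peak of 4516 bp in epithelium and 4040 bp in fiber cells had summits 1027 bp apart. Reads from near-identical copies cannot be assigned to 1 of them, and values there are uncertain.

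Peaks that matched were wider. The median width was 263 bp in matched and 222 bp in unmatched epithelium peaks, and 298 and 238 bp in the fiber list. A floor set the narrow end, at 192 bp in the epithelium list and 188 bp in the fiber list, and 21.9% (95% CI 20.7 to 23.2) of epithelium peaks alone sat exactly on it, against 6.52% of matched ones. On the fiber floor sat 15.5% (95% CI 14.9 to 16.2) of peaks alone and 3.67% of matched ones. Widths over 400 bp were found in 10.3% of matched fiber peaks, 3.16% of fiber peaks alone, 3.93% of matched epithelium peaks and 1.06% of epithelium peaks alone. No peak above 1000 bp was alone in either list.

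**Figure D3:**
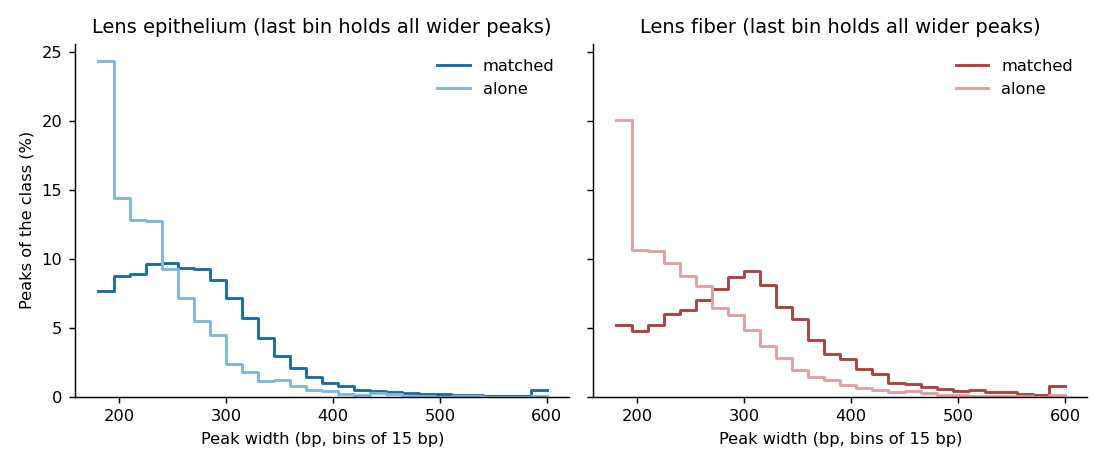
Percent of peaks of each class (vertical axis) by peak width in bp, in bins of 15 bp, for lens epithelium (left) and lens fiber (right), matched in the dark and alone in the light shade; the last bin holds all wider peaks. The lowest bin holds the most unmatched peaks in both lists, and matched peaks are shifted to the right, with medians of 263 and 298 bp.

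Part of the difference in width went with fold, since width and fold went together within each list (Spearman rho 0.567 in epithelium and 0.626 in fiber cells, over peaks of 1 library each). Within quintiles of fold rank the gap was smaller. In the highest quintile the median width was 307 bp (95% CI 306 to 309) for matched and 289 bp (95% CI 282 to 300) for unmatched epithelium peaks, and 335 bp (95% CI 333 to 337) against 308 bp (95% CI 305 to 311) in fiber cells. In the lowest quintile it was 214 against 204 bp and 218 against 204 bp. Matched peaks were wider in every quintile of both lists, but their median fold was higher there too. In the highest quintile the median fold was 8.54 against 7.95 in epithelium and 10.4 against 9.69 in fiber cells. Pairs were wider in fiber cells by a median of 29 bp (95% CI 27 to 30), and 65.3% of pairs had the wider peak in fiber cells.

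All 10 of the widest peaks of each list were matched. Most had low folds for their width, such as 2.73 and 2.84 for the peak at Gm10222 and Gm10925, while the peak 10468 bp from Gm5960 on chromosome 15, with 1619 bp in epithelium and 1600 bp in fiber cells, had folds of 11.1 and 11.5. A peak in Zswim6, a zinc finger gene, was 1422 bp wide in epithelium and 1598 bp in fiber cells, with folds of 5.35 and 5.44. Myo3a, a myosin gene, held one of 1058 bp in fiber cells with a fold of 7.11.

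Epithelium summits had their next neighbour at a median of 72.2 kb (quartiles 24.6 and 179), and fiber summits at 47.2 kb (quartiles 17.0 and 116). Matched peaks lay closer to one another than unmatched ones did. In epithelium the median distance was 66.3 kb between 2 matched neighbours, 77.2 kb between a matched and an unmatched one, and 94.0 kb (95% CI 80.6 to 106) between 2 unmatched ones. In fiber cells the same distances were 42.2, 48.3 and 51.7 kb (95% CI 49.4 to 54.1). Neighbours less than 10 kb apart made up 13.1% of matched neighbours and 10.6% of unmatched ones in epithelium, and 18.5% and 14.6% in fiber cells.

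The class of a peak told little about that of the next one along the chromosome. After a matched epithelium peak the next was matched in 73.7% (95% CI 72.9 to 74.5) of cases, and after an unmatched one in 71.6% (95% CI 70.3 to 73.0). In fiber cells the shares were 51.0% (95% CI 50.1 to 51.9) and 48.9% (95% CI 48.0 to 49.8). Unmatched peaks were thus scattered among matched ones with a small excess of like neighbours.

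Unmatched peaks were seldom near misses. From an epithelium peak alone the nearest fiber summit was a median of 26.6 kb (95% CI 25.2 to 28.1) away, and from a fiber peak alone the nearest epithelium summit was 36.7 kb (95% CI 35.5 to 37.8) away. Distances of 1 kb or less were found for 2.36% of the former and 1.79% of the latter. For matched peaks the second nearest summit of the other list, which leaves out the partner, lay at medians of 20.5 and 31.9 kb.

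Density went with genes for 2 of the 3 classes. Over the 2401 Mb between the first and the last peak of the chromosomes there were 4.81 matched peaks per Mb (counted in epithelium), 1.77 epithelium peaks alone and 4.82 fiber peaks alone. With lists of equal size both unmatched densities were 2.56 per Mb, nearly equal by construction. Matched peaks ranged from 3.46 per Mb (95% CI 3.18 to 3.77) on chromosome 3 to 6.33 (95% CI 5.94 to 6.75) on chromosome 5, and fiber peaks alone from 3.62 (95% CI 3.23 to 4.04) on chromosome 18 to 6.89 (95% CI 6.43 to 7.38) on chromosome 11. Across the 19 chromosomes the Spearman rho with protein-coding genes per Mb was 0.879 for matched peaks, 0.956 for fiber peaks alone and 0.342 for epithelium peaks alone. These are descriptions over chromosomes of the same 2 libraries. Epithelium peaks alone were spread at 1.29 per Mb (95% CI 1.12 to 1.49) on chromosome 3 up to 2.52 (95% CI 2.27 to 2.79) on chromosome 5.

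**Figure D4:**
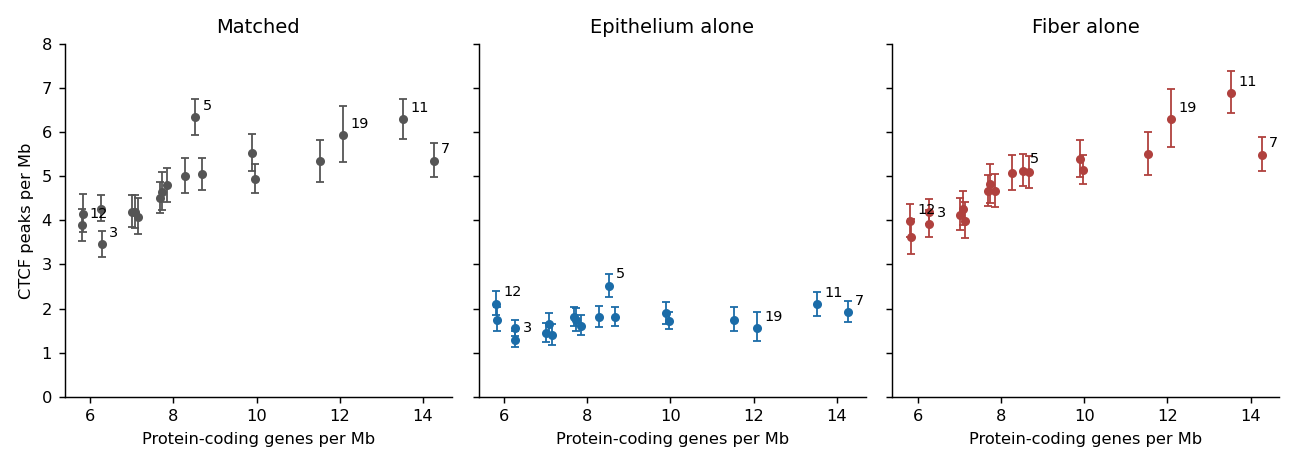
CTCF peaks per Mb (vertical axis) against protein-coding genes per Mb (horizontal axis) for each of 19 chromosomes, in 3 panels for matched peaks, epithelium peaks alone and fiber peaks alone, with 95% Poisson intervals and some chromosome numbers. Matched and fiber-alone density go up with gene density. Epithelium-alone density, from 1.29 to 2.52 per Mb, varies by a similar factor but follows gene density less closely (Spearman rho 0.342).

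Chromosome 5 had the highest density of matched peaks and of epithelium peaks alone, but at 5.13 per Mb (95% CI 4.77 to 5.51) not of fiber peaks alone. Its fiber peaks had the highest matched share of any chromosome (55.2%, 95% CI 52.9 to 57.6). The matched share of epithelium peaks was lowest on chromosome 12 at 64.8% (95% CI 61.2 to 68.3) and highest on chromosome 19 at 79.2% (95% CI 75.1 to 82.7), and elsewhere between 70.4% and 75.4%.

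In windows of 1 Mb, the fullest of fiber peaks alone were gene-rich. The window from 45 to 46 Mb of chromosome 7, with 66 protein-coding genes, among them Bax, a mediator of cell death, and Ftl1, a ferritin subunit gene, held 28 fiber peaks alone, 5 epithelium peaks alone and 13 matched ones. That from 80 to 81 Mb of chromosome 10, with 54 genes including Lmnb2, a nuclear lamin gene, held 27, 1 and 15. Next came chr1:74000001-75000000, with 30 genes including the crystallin gene Cryba2, which held 24, 4 and 8. The window from 96 to 97 Mb of chromosome 11, which spans the Hoxb cluster of body axis genes, held 22, 0 and 11. On the same chromosome chr11:120000001-121000000, with 46 genes, held 22, 2 and 7. Epithelium peaks alone were most numerous from 15 to 16 Mb of chromosome 5, with 17 of them beside 12 fiber peaks alone and 21 matched ones. That window has 6 protein-coding genes, including Speer4c and Speer4d of a repeated family, whose copies may share reads. A pair of neighbouring windows from 127 to 129 Mb of chromosome 5, with Tmem132c, Tmem132d and the Wnt receptor gene Fzd10, held 15 and 16.

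Gene ends split the unmatched classes. Within 500 bp of an end of a protein-coding gene lay 10.6% (95% CI 10.1 to 11.2) of fiber peaks alone, 4.81% (95% CI 4.44 to 5.22) of matched fiber peaks, 4.85% of matched epithelium peaks and 1.79% (95% CI 1.43 to 2.24) of epithelium peaks alone. Where the start of the gene was known, the difference lay at starts: 971 fiber peaks alone (8.39%) were within 500 bp of one, against 305 matched fiber peaks (2.64%) and 27 epithelium peaks alone (0.636%). At far ends of genes the shares were 1.30%, 1.42% and 0.660%. Within 1 kb of a gene end the order was the same, with 15% of fiber peaks alone, 7.75% of matched fiber peaks and 3.30% of epithelium peaks alone. Read the other way, 91.7% (95% CI 88.2 to 94.2) of the 326 epithelium peaks at a gene start were matched, above the 73.2% of all epithelium peaks. Of the 1276 fiber peaks at a gene start 23.9% (95% CI 21.6 to 26.3) were matched, below the 50% of all fiber peaks. Inside gene bodies away from the ends the classes were alike, with 42.0% of matched epithelium peaks, 43.0% of epithelium peaks alone, 42.1% of matched fiber peaks and 44.2% of fiber peaks alone.

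The share at gene ends did not follow rank in the same way in all classes. Among fiber peaks alone it was 10.3% (95% CI 9.35 to 11.3) in the lowest quintile of fold and 16.9% (95% CI 14.3 to 19.9) in the highest, while among matched fiber peaks it was 3.50% and 6.52%. At every rank fiber peaks alone were at gene ends more often than matched ones, and the intervals did not overlap. Epithelium peaks alone stayed between 1.42% and 2.80%.

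The comparison with loop anchors from Hi-C of the same cell types was chosen after the data had been seen. Anchors of the epithelium loops covered 7.93% and those of the fiber loops 7.73% of the span. In anchors of its own cell type lay the summit of 37.2% (95% CI 36.3 to 38.1) of matched epithelium peaks, 14.4% (95% CI 13.4 to 15.5) of epithelium peaks alone, 37.3% (95% CI 36.4 to 38.2) of matched fiber peaks and 32.0% (95% CI 31.1 to 32.8) of fiber peaks alone. All 4 shares were above the covered part of the span, and epithelium peaks alone were the least often at anchors. Cell type of the loops mattered little to the classes: 33.2% of fiber peaks alone lay in anchors of epithelium loops and 14.1% of epithelium peaks alone in anchors of fiber loops. Of the fiber peaks alone 8.35% were in anchors of fiber loops only and 9.53% in anchors of epithelium loops only.

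With rank the 2 lists diverged. From the lowest to the highest quintile of fold the share in anchors went from 23.0% (95% CI 21.7 to 24.4) to 46.5% (95% CI 42.8 to 50.2) in fiber peaks alone and from 21.9% to 48.4% (95% CI 46.9 to 50) in matched fiber peaks. In matched epithelium peaks it was 34.8% and 37.9%, and in epithelium peaks alone 14.1% and 15.4% (95% CI 10.4 to 22.2). Strong fiber peaks without an epithelium counterpart were thus at loop anchors about as often as strong matched ones, with overlapping intervals, and strong epithelium peaks alone were not.

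**Figure D5:**
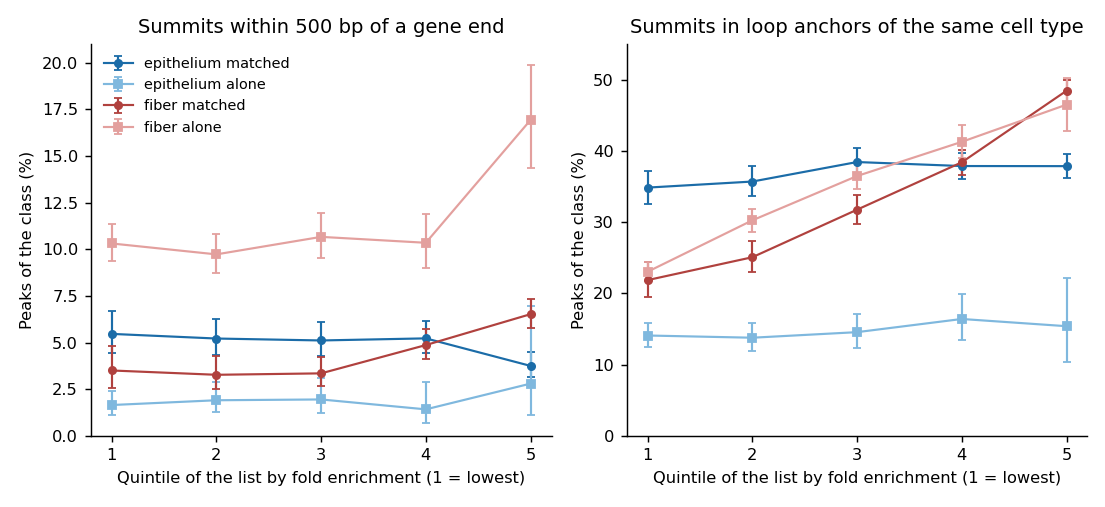
Percent of peaks in each of 4 classes whose summit lies within 500 bp of a protein-coding gene end (left) or in a loop anchor of the same cell type (right), by quintile of fold enrichment (1 is the lowest), with 95% Wilson intervals. Fiber peaks alone are highest at gene ends in every quintile, reaching 16.9%, and epithelium peaks alone are lowest at anchors in every quintile, between 13.8% and 16.4%.

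The motif core could be read only where a summit fell in the 300-base promoter windows given for 31365 gene starts on these chromosomes. It was found in the window of 63.4% (95% CI 57.7 to 68.8) of 287 matched fiber peaks and 64.4% of 275 matched epithelium peaks. Of 662 fiber peaks alone 33.8% (95% CI 30.3 to 37.5) had it, and 6 of 16 epithelium peaks alone, too few to set beside the others. All promoter windows held it in 8.73%. Windows with no summit and a GC content of at least 60% held it in 13.9%, and the windows of fiber peaks alone had a median GC content of 62.3%, against 58.0% for matched fiber peaks. The shorter core AGNNGGC separated them less, with 83.5% of fiber-alone, 90.2% of matched fiber and 59.7% of all windows, and 80% (95% CI 79.1 to 80.8) of the windows with no summit and a GC content of at least 60%.

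Among fiber peaks alone the share with the core was higher at higher fold, from 25.3% (95% CI 19.2 to 32.5) of 162 in the lowest quintile to 51.2% (95% CI 40.6 to 61.7) of 82 in the highest. In the highest quintile of matched fiber peaks it was 67.8% (95% CI 60.6 to 74.3) of 174, and both intervals overlapped. That quintile held 174 of the 287 matched but 82 of the 662 fiber peaks alone, so that the shares over all ranks mix different folds. In quintile 3 the core was in 33.3% (95% CI 16.3 to 56.3) of 18 matched peaks and 36.2% of 152 fiber peaks alone. In all other quintiles the matched share was the higher one, though the lower ones held few matched peaks. It was 50% (95% CI 21.5 to 78.5) of 8 in quintile 1 and 60% (95% CI 35.7 to 80.2) of 15 in quintile 2. In quintile 4 it was 62.5% (95% CI 51.0 to 72.8) of 72, against 38.1% (95% CI 29.6 to 47.3) of 113 fiber peaks alone. Summits lay near the core. The median distance to its centre was 15.5 bp in matched fiber peaks, 21.5 bp in matched epithelium peaks and 31.5 bp in fiber peaks alone. In 175 pairs with both summits in a window that holds the core, the fiber summit was nearer in 101 and the epithelium summit in 71. The fiber share of these was 58.7% (95% CI 51.3 to 65.8). All pairs come from the same 2 libraries, so that this interval gives counting error only and shows no difference between cell types.

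Genes of the lens were looked up in 4 lists. Of all 20661 protein-coding genes on these chromosomes, 36.1% overlapped a peak of either list, and of those under 20 kb 18.3%. The crystallin list, the genes of the refractive proteins of the lens, had 16 members on these chromosomes, all under 20 kb, of which 4 overlapped a peak. The pair in Cryba2 had a fold of 6.84 in epithelium, at percentile 71.7, and of 4.47 in fiber cells, at percentile 8.79, so that it ranked lower in fiber cells. A second Cryba2 peak with a fold of 4.30, one in Crybb3 with 6.61 and one whose summit was 17 bp from the start of Crygn with 3.43 were found in fiber cells alone, and one in Crybb2 with 4.96 in epithelium alone. Their percentiles were 6.03, 52.9 and 0.627 in the fiber list and 25.2 in the epithelium list. No listed peak overlapped the gene bodies of Cryaa, Cryab or the genes from Cryga to Cryge. The study reports raised CTCF signal across the Cryaa gene body in fiber cells, and broad signal over the gamma-crystallin cluster. Read signal was not used here, so that a gene without a listed peak is not shown to lack CTCF. With gene bodies widened by 2 kb the number of fiber-alone peaks at crystallin genes was 6 in place of 3.

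Of 15 genes for fiber membrane and cytoskeleton, 7 overlapped a peak, with 7 matched and 3 unmatched peaks in epithelium and 7 and 5 in fiber cells. Ank2, an ankyrin gene of 579 kb, held 5 of the matched pairs. One of these went from a fold of 3.92 in epithelium to 9.11 in fiber cells and another from 7.76 to 5.69, so that neighbouring sites of 1 gene differed in opposite directions. Vim, for the intermediate filament vimentin, had a pair 1358 bp from its start in epithelium, with folds of 7.52 and 7.63. The beaded filament genes differed: Bfsp1 had 1 peak in epithelium alone with 5.94 and another in fiber cells alone with 8.15, and Bfsp2 had 1 matched pair with folds of 4.61 and 5.18 and 1 unmatched peak in each list. No listed peak overlapped Mip, Gja3 or Lim2, which code for membrane proteins of fiber cells. The study names Mip among genes with high CTCF signal across the gene body, a measure that was not used here.

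Among 18 lens transcription factor genes, 6 overlapped a peak, with 3 matched and 2 unmatched peaks in epithelium and 3 and 8 in fiber cells. Casz1, a zinc finger factor gene, had 2 pairs, with folds of 4.85 and 6.57 at one and 6.55 and 6.42 at the other. The pair near the far end of Pitx3, a homeobox gene of lens development, had folds of 4.03 in epithelium and 6.44 in fiber cells. Fiber cells alone had a peak in Gata3 with 8.10, a factor gene of fiber differentiation, 2 in Hif1a, for the oxygen response factor, with 4.39 and 5.71, and one in Meis2 with 5.31. Both Hif1a peaks had the floor width of 188 bp, at percentiles 7.26 and 34.7, beside 73.2 in Gata3 and 25.9 in Meis2. No listed peak overlapped the gene bodies of Pax6, Prox1, Sox1, Sox2, Maf, Foxe3 or Hsf4. Sites beyond the bodies do not enter that count, and the study describes CTCF peaks across the wider Pax6 locus and upstream of Sox1 and Sox2. With bodies widened by 2 kb the matched fiber peaks of this list numbered 5 in place of 3.

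Of the 8 CTCF and cohesin genes on these chromosomes 6 overlapped a peak, and the fiber list held 2 matched and 5 unmatched ones. In fiber cells alone a peak with a fold of 7.13 lay 291 bp from the start of Ctcf itself, and others were in Rad21, a cohesin subunit gene, with 5.85, in Pds5a, a cohesin regulator gene, with 7.08, and in Stag1, a cohesin subunit gene, with 4.22 and 9.32. The pair at the start of Pds5b, another cohesin regulator gene, had a fold of 5.17 in epithelium, at percentile 31.3, and of 12.8 in fiber cells, at percentile 97.6. Nipbl, for the cohesin loader, had a pair with 6.47 in epithelium and 5.24 in fiber cells and 1 epithelium peak alone with 4.89. Beside the 50% of all fiber peaks that were alone, counts as small as these show nothing particular to a list, and with 1 library per cell type the order of single folds has no replicate behind it.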

How the data were processed

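CTCF ChIP-seq of lens epithelium and lens fiber cells, 1 peak list each, was compared. The authors aligned reads with BWA, kept unique alignments without duplicates and called peaks with MACS2 on mm10, per the study's methods and the submitters' processing notes; versions are not given in the sources used here. Deposited columns, as the authors' caller wrote them, hold a score, the fold enrichment (a ratio over background) and −log10 p-values and q-values. Fold enrichment (column 7) gave ranks. No counts of reads were used here, so depth is unknown.

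Matching, summit distances, spacing and density used scipy 1.17.1, pandas 2.3.3 and numpy 2.4.6 under Python 3.11.15, with figures from matplotlib 3.10.9, and 13 of 13 checks on simulated lists gave the known answer. Shares have Wilson, medians order-statistic and densities exact Poisson 95% intervals. Density used the span from first to last peak. Gene positions are from RefSeq GRCm38.p6, with 20661 protein-coding genes, 16429 of them with a known start. Loop lists, merged from 2 Hi-C replicates by the authors, gave anchors; other Hi-C tables were not used here. Genes named are those at the 10 highest folds of each class, at the 10 widest peaks of each list and in 4 gene lists; genes in dense windows and at printed sequences were named after their values were seen. Members and lists were chosen with earlier results of these data known. Alternatives covered the overlap, thresholds, list size, ranking column, distances and motif.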

Additional observations from a re-analysis of the deposited data

Results flagged for a closer look

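Peaks outside chromosomes 1 to 19 took no part in the comparison and were above the limit of 3 that a count of 0 allows. On the X chromosome the epithelium list had 575 peaks and the fiber list 642, of which 357 of each list overlapped the other, 62.1% (95% CI 58.1 to 66.0) of the epithelium and 55.6% (95% CI 51.7 to 59.4) of the fiber peaks. The epithelium share was below, and the fiber share above, those of chromosomes 1 to 19, 73.2% and 50%. On the Y chromosome there were 54 and 89 peaks, of which 39 of each list overlapped the other. The mitochondrial genome held 5 peaks in each list.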

How the results depend on the processing

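Each alternative was run on 1 choice at a time. Of 81 values recomputed, each labelled on its own, 35 stayed within their interval or count, 46 moved and 0 reversed. The order between values was not labelled. It turned for the pairs ranked over 50 points apart, where with lists of equal size the larger count was the one higher in epithelium. All values at anchors, and pair counts with lists of equal size, were chosen after seeing the data. With a reciprocal overlap of at least 50% the matched shares were 70.3% of epithelium and 48.0% of fiber peaks. With summits within 100 bp they were 69.7% and 47.6%, epithelium peaks alone had a median width of 225 bp, and 2.28% of them lay at a gene end and 16.0% in an anchor. With −log10 q above 3, 74.2% of epithelium peaks matched, and the densities were 4.71 (matched), 1.64 (epithelium alone) and 4.63 per Mb (fiber alone). In the stronger 50% of each list the shares were 68.4% and 46.7% and the median shift 23 bp. With the fiber list cut to the epithelium number, the shares were 61.1% and 61.0%, so that the lower share of fiber peaks rested on the length of the list by construction. There the pairs differed in width by 38 bp, unmatched widths were 228 bp (epithelium) and 264 bp (fiber), their median percentiles 31.9 and 32.7, fiber spacing 70.5 kb, and densities 4.02 (matched), 2.56 (epithelium alone), 2.56 (fiber alone) and 4.94 per Mb (matched on chromosome 5), 2.24% of epithelium peaks alone lay at a gene end, and 552 pairs ranked over 50 points higher in fiber cells and 668 in epithelium. Ranked by −log10 q the unmatched medians were 26.5 (epithelium) and 33.3 (fiber), and by score 26.6 and 33.4. With peaks closer than 1 kb joined, spacing was 74.2 and 49.0 kb. With 1 kb in place of 500 bp, gene ends took 7.75% of matched fiber peaks, 15% of fiber and 3.30% of epithelium peaks alone. With anchors widened by 5 kb the shares were 46.4% of matched epithelium, 20.3% of epithelium-alone, 46.4% of matched fiber and 41.3% of fiber-alone peaks. The shorter motif gave 90.2% of matched fiber and 83.5% of fiber-alone peaks. With gene bodies widened by 2 kb there were 6 fiber-alone crystallin peaks and 5 matched fiber peaks in lens transcription factors. The cause of the differences between both lists was not tested. The span from first to last peak was the main choice for density, so that no other length was run. No replicate could be left out, with 1 peak list per cell type. No paired analysis was possible because each cell type has 1 CTCF peak list and no test was run.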
